A study of Homo sapiens with 11 samples.

Results

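The kinesin and dynein motor genes were the 52 of 31325 gene rows whose symbol began with KIF and a digit, DYNC1, DYNC2 or DYNL. They comprised 14 mitotic kinesins, 13 transport kinesins, 12 other kinesins, 2 dynein heavy chains, 5 dynein intermediate and light intermediate chains and 6 dynein light chains. mRNA levels were measured on 11 Illumina expression BeadChips in 2 human cancer cell lines, MDA-MB-231, a basal-like breast line, and SKOV3, an ovarian line that the study's text calls SKOV3.ip1. Each line received either the miRNA miR-365a-3p or a control miRNA. There were 3 MDA-MB-231 miR-365a-3p arrays, 3 MDA-MB-231 control arrays, 3 SKOV3 miR-365a-3p arrays and 2 SKOV3 control arrays. The sample labels give 48 h of treatment for every group and the series text 24 h, so the time is not settled here. The question for the motor genes was how their mRNA levels differed between miR-365a-3p and control arrays within each line, and between the lines.

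Kinesins and cytoplasmic dynein are motors that walk along microtubules on energy from ATP, most kinesins towards the plus end and dynein towards the minus end. Mitotic kinesins build the spindle, move chromosomes and complete cytokinesis, and many of them are made mainly in dividing cells, whereas transport kinesins carry vesicles, organelles and mRNA. Cytoplasmic dynein 1 is assembled from heavy, intermediate, light intermediate and light chains and carries cargo inward with its cofactor dynactin, while dynein 2 works inside cilia.

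The transfected miRNA is shown because every comparison turns on it. Its mature sequence was taken from RefSeq (GRCh38.p14), where it lies at chr16:14309340-14309361 on the plus strand, and a second locus, miR-365b-3p at chr17:31575478-31575499 on the plus strand, encodes the same 22 bases. The capitals mark the seed, bases 2 to 8, which pairs with target mRNAs.
hsa-miR-365a-3p: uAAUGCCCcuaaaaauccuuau
hsa-miR-365b-3p: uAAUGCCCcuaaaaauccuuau

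Levels are given as log2 values after quantile normalization across the 11 arrays, a step that gives every array the same distribution. On that scale the 60th percentile of an array was 7.43 and the 75th 7.80, and a mean of 8 was used to part the 23 motor genes that stood above the dense low end of the table from the 29 that did not. In the deposited values the 75th percentile ran from 7.56 to 7.80 on the miR-365a-3p arrays and from 7.86 to 8.04 on the control arrays, so the spread of an array moved with the treatment, and the part of this difference in the results was not tested. Among the listed markers that tell the lines apart, ERBB2 and EPCAM followed the labels. ERBB2 averaged 10.86 in SKOV3 controls and 7.61 in MDA-MB-231 controls, EPCAM 10.36 and 7.63, and the blood and endothelial markers PTPRC and PECAM1 lay between 7.28 and 7.47 in all 4 groups. VIM, a mesenchymal filament listed as a marker of MDA-MB-231, was at 13.79 and 13.70 in the controls, high in both lines. CD44, also listed for MDA-MB-231, averaged 11.26 in its controls and 10.47 in SKOV3 controls, which did not pass (adjusted p = 0.0609 in limma). With miR-365a-3p CD44 averaged 8.74 in MDA-MB-231 and 9.05 in SKOV3. The arrays overlapped, at 8.44, 8.84 and 8.93 against 8.69, 9.45 and 8.99, and this difference was not tested. Nothing in the labels says that replicates came from separate cultures, so the p-values measure only the spread between these arrays. Fewer dividing cells and less mRNA per cell cannot be told apart in such bulk samples. The study states that miR-365a did not lower proliferation of either line in culture, a measure taken apart from these arrays.

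In MDA-MB-231 cells 13 of the 52 motor genes were lower and 6 higher with miR-365a-3p at an adjusted p under 0.05 in limma, beside 11.7% of all rows lower and 14.4% higher. In SKOV3 cells 8 were lower and 4 higher, beside 7.11% and 7.25% of all rows. Rows at the low end were called less often, so the rows with a mean above 8 are given as well. Of these, 26.2% were lower and 39% higher in MDA-MB-231 and 15.3% and 23.4% in SKOV3, and of the 23 motor genes above 8, 10 were lower and 4 higher in MDA-MB-231 and 3 and 3 in SKOV3. The median log2 fold change of those 23 genes was -0.40 in MDA-MB-231 and 0.06 in SKOV3, against 0.17 and 0.15 over all rows above 8, and the SKOV3 median turned to -0.19 on the deposited values, -0.15 with median centring and -0.03 with cyclic loess. The MDA-MB-231 median was -0.69 on the deposited values and -0.66 with median centring, where the median over all rows above 8 was -0.05 and -0.02. On the deposited values without further normalization, 21 motor genes were lower and 4 higher in MDA-MB-231, and 11 and 3 in SKOV3, while lower calls over all rows went from 44.8% to 71.2% of calls in MDA-MB-231 and from 49.5% to 78.6% in SKOV3.

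KIF20A, KIF13B, KIF1B, DYNC1H1 and DYNLRB1 were lower in both lines, 5 genes beside 5.39% of all rows, and KIF18A, KIF3A, DYNC2LI1 and DYNLT3 were higher in both, 4 genes beside 5.76%. Of the 23 motor genes above 8, 3 were lower and 3 higher in both lines, beside 915 and 1442 of the 6853 rows above 8. Across the 23 genes above 8 the responses of the lines, which share no arrays, had a Pearson correlation of 0.923 and Spearman's rho of 0.929, a description across genes measured with the same 2 treatments. The same was not computed over all rows, so these values do not show a likeness particular to the motor genes. The response differed between the lines in limma for DYNC1H1 alone among the 52, beside 2.54% of all rows, although without SKOV3 miR-365a-3p replicate 1 it was called for 5 motor genes and without SKOV3 control replicate 1 for 0 (6 at an unadjusted p under 0.05).

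**Figure D1:**
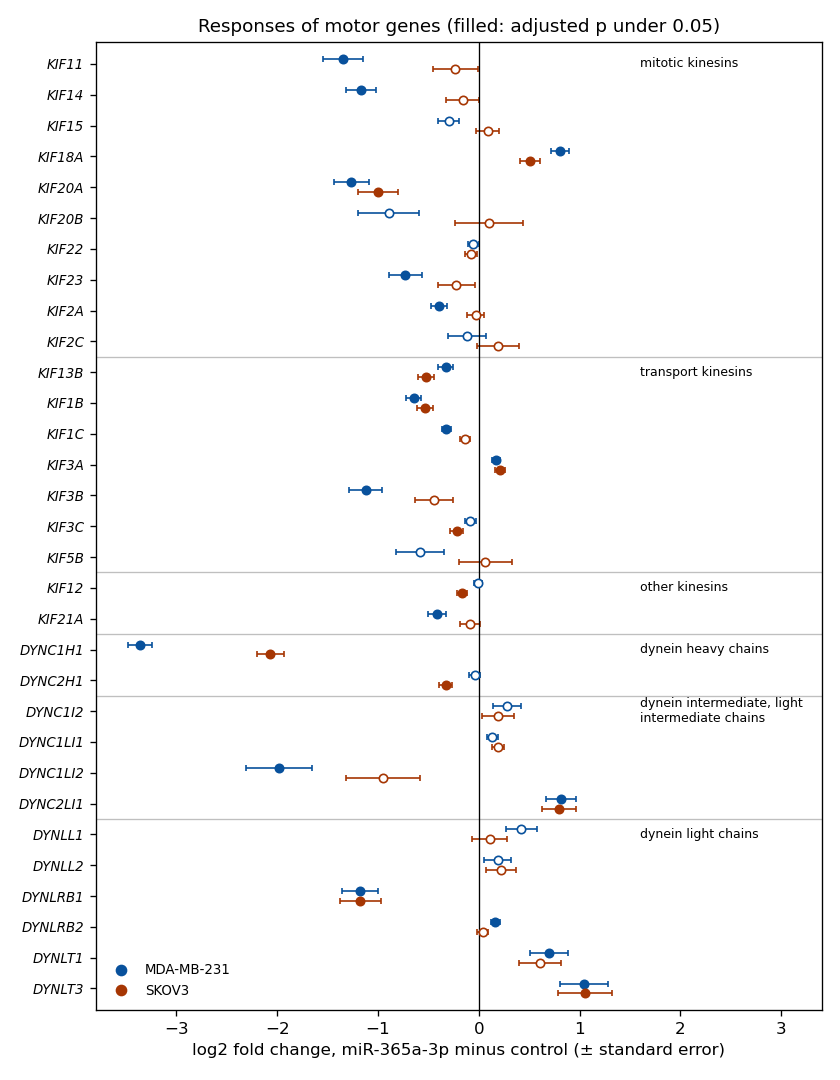
Log2 fold change with miR-365a-3p against control on the x axis, with its standard error as a bar, for the motor genes with a mean above 8 or a call in either line, listed on the y axis by class. Blue points are MDA-MB-231, brown points SKOV3, and filled points have an adjusted p under 0.05. DYNC1H1 lies farthest to the left at -3.36 and -2.07, and DYNLT3 farthest to the right at 1.04 and 1.05.

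DYNC1H1, the heavy chain that holds the motor domain of cytoplasmic dynein 1, was the motor gene with the largest fall in both lines. In MDA-MB-231 cells its control arrays were at 11.26, 11.54 and 11.82 and its miR-365a-3p arrays at 8.22, 8.16 and 8.15. In SKOV3 cells the controls were at 9.67 and 9.90 and the miR-365a-3p arrays at 7.71, 7.68 and 7.73. All miR-365a-3p arrays lay far below all control arrays of their line, and the SKOV3 ones ended near the low end of the table. The log2 fold change was -3.36 (SE 0.12, adjusted p = 1.44e-06 in limma), a 10.3-fold lower level, in MDA-MB-231 and -2.07 (SE 0.134, adjusted p = 4.24e-05 in limma), 4.20-fold lower, in SKOV3. The responses differed by -1.29 (SE 0.18, adjusted p = 0.00745 in limma), and the adjusted p of this difference was 0.0511 without SKOV3 control replicate 1. A level close to the low end bounds how far a gene can be seen to fall, and how much of the difference comes from that was not tested.

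The other heavy chain, DYNC2H1, drives the dynein 2 motor that returns cargo from the tip of the cilium. It was at 8.24 and 8.29 in SKOV3 controls and at 7.97, 8.0 and 7.83 with miR-365a-3p, a small fall of 0.33 on the log2 scale (SE 0.0636, adjusted p = 0.00916 in limma) that missed the threshold without SKOV3 control replicate 2 (adjusted p = 0.0878 in limma). In MDA-MB-231 cells the controls at 7.81, 7.71 and 7.81 and the miR-365a-3p arrays at 7.83, 7.72 and 7.66 overlapped, with a log2 fold change of -0.04 (adjusted p = 0.723 in limma). That value depended on the scaling, being -0.31 on the deposited values and -0.28 with median centring (adjusted p = 0.00068 and 0.00107 in limma), where the difference between the lines was also called (0.33, adjusted p = 0.0239 and 0.0215), as it was with array weights (adjusted p = 0.0315).

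**Figure D2:**
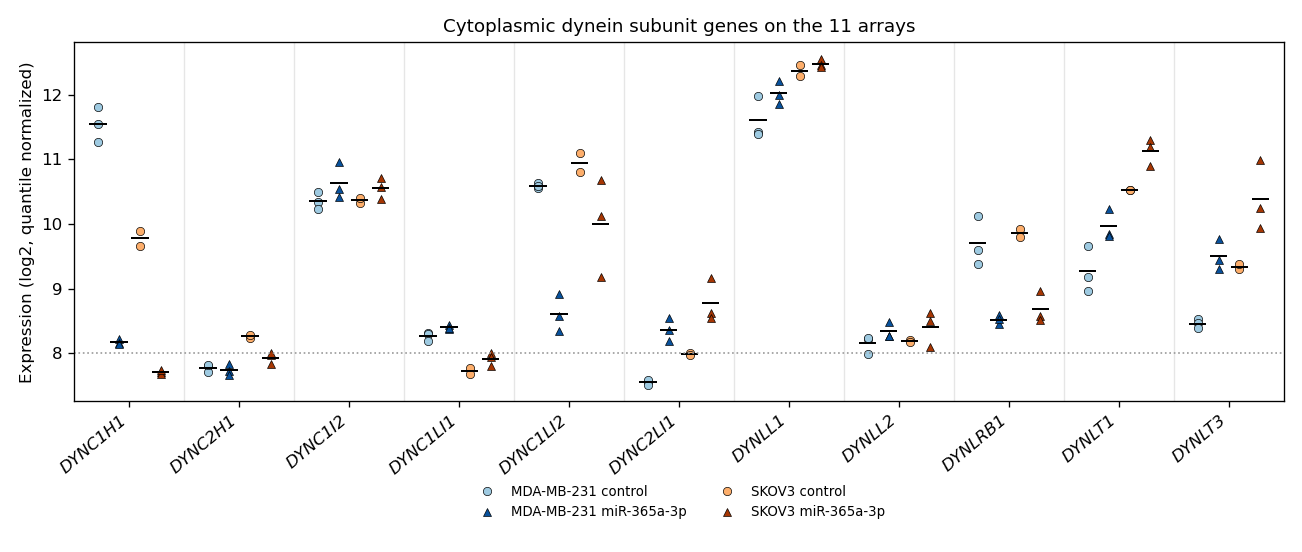
Normalized log2 level on the y axis of the dynein genes with a mean above 8 and of DYNC2H1, side by side on the x axis. Circles are control arrays, triangles miR-365a-3p arrays, blue MDA-MB-231 and orange to brown SKOV3, short bars are group means and the dotted line is at 8. DYNC1H1 is at 9.67 or more on every control array and at 8.22 or less on every miR-365a-3p array.

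The subunits that join the heavy chain to cargo did not move as a block. DYNC1LI2, a light intermediate chain that binds cargo adaptors, was at 10.63, 10.56 and 10.59 in MDA-MB-231 controls and at 8.34, 8.57 and 8.92 with miR-365a-3p. Its log2 fold change there was -1.98 (SE 0.327, adjusted p = 0.00218 in limma), 3.95-fold lower. In SKOV3 cells the controls at 10.80 and 11.10 also stood above the miR-365a-3p arrays at 9.18, 10.69 and 10.13, but the arrays scattered widely and the log2 fold change of -0.95 did not pass (SE 0.365, adjusted p = 0.138 in limma). It passed with the trended robust fit (adjusted p = 0.0469 in limma), with array weights (0.0218) and without SKOV3 miR-365a-3p replicate 2 (-1.29, adjusted p = 0.0223). The difference between the lines was -1.03 (adjusted p = 0.441 in limma), and -1.42 (adjusted p = 0.0354) without SKOV3 miR-365a-3p replicate 1.

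Its paralog DYNC1LI1 went the other way on this scale. MDA-MB-231 controls were at 8.31, 8.30 and 8.19 and miR-365a-3p arrays at 8.38, 8.44 and 8.38, while SKOV3 controls were at 7.77 and 7.69 and miR-365a-3p arrays at 8.0, 7.94 and 7.81. The groups did not overlap in either line, but the log2 fold changes of 0.14 and 0.19 did not pass (adjusted p = 0.101 and 0.0695 in limma). Both rises passed with the replicate block (adjusted p = 0.0462 and 0.0202 in limma) and without SKOV3 miR-365a-3p replicate 3 (0.0432 and 0.017). The MDA-MB-231 rise also passed with array weights (0.0479) and the SKOV3 rise with cyclic loess (0.0397). The MDA-MB-231 value was -0.24 on the deposited values and -0.21 with arrays centred on their medians, so its direction is not settled. DYNC1I2, the intermediate chain found in most cells, overlapped between groups in both lines with log2 fold changes of 0.28 and 0.19 (adjusted p = 0.212 and 0.586 in limma). DYNC1I1, the intermediate chain best known from neurons, averaged 7.35 and had log2 fold changes of 0.02 and 0.03.

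DYNC2LI1, the light intermediate chain of the ciliary dynein 2, rose in both lines. It was at 7.56, 7.58 and 7.51 in MDA-MB-231 controls and at 8.55, 8.36 and 8.19 with miR-365a-3p, and at 8.0 and 7.97 in SKOV3 controls and 9.16, 8.62 and 8.55 with miR-365a-3p. The groups stood apart in both lines. The log2 fold changes were 0.82 (SE 0.151, adjusted p = 0.00388 in limma) and 0.79 (SE 0.168, adjusted p = 0.0145 in limma), and the SKOV3 call was lost without either control array (adjusted p = 0.0889 and 0.111) and with SKOV3 fitted alone (adjusted p = 0.102).

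Light chains form dimers at the base of the motor and also serve in other complexes. DYNLRB1, of the roadblock family, was the light chain that fell. It was at 9.38, 10.12 and 9.60 in MDA-MB-231 controls and 8.59, 8.45 and 8.52 with miR-365a-3p, and at 9.80 and 9.92 in SKOV3 controls and 8.57, 8.52 and 8.96 with miR-365a-3p. No miR-365a-3p array reached a control array of its line. The log2 fold changes were nearly equal, -1.18 (SE 0.183, adjusted p = 0.00159 in limma), 2.26-fold lower, and -1.17 (SE 0.204, adjusted p = 0.0057 in limma), and without SKOV3 control replicate 2 the SKOV3 value missed the threshold (adjusted p = 0.061 in limma).

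The Tctex-type light chains rose or stood higher. DYNLT3 was at 8.52, 8.47 and 8.39 in MDA-MB-231 controls and 9.76, 9.44 and 9.30 with miR-365a-3p, and at 9.30 and 9.38 in SKOV3 controls and 10.99, 10.24 and 9.94 with miR-365a-3p. In each line the lowest miR-365a-3p array stood above the highest control array. The log2 fold changes were 1.04 (SE 0.236, adjusted p = 0.0105 in limma), 2.06-fold, and 1.05 (SE 0.264, adjusted p = 0.0296 in limma), 2.07-fold, with the SKOV3 call lost without either control array (adjusted p = 0.165 and 0.15) and with the line fitted alone (0.156). DYNLT1 was at 9.17, 9.66 and 8.97 in MDA-MB-231 controls and 10.24, 9.84 and 9.81 with miR-365a-3p, a log2 fold change of 0.70 (SE 0.187, adjusted p = 0.0234 in limma) that was lost under 7 of the alternatives, among them the deposited values (adjusted p = 0.0941). In SKOV3 cells DYNLT1 was at 10.52 and 10.53 in controls and 11.29, 10.90 and 11.20 with miR-365a-3p, which gave 0.60 (adjusted p = 0.0994 in limma), a value that passed with array weights (0.0198) and without MDA-MB-231 control replicate 2 (0.0416).

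The LC8 light chains, which bind many partners besides dynein, did not pass in either line at the main settings. DYNLL1 had log2 fold changes of 0.42 and 0.11 (adjusted p = 0.0826 and 0.838 in limma), and its MDA-MB-231 value passed under 4 alternatives, at 0.61 on the deposited values (adjusted p = 0.0364) and 0.61 without MDA-MB-231 control replicate 2 (adjusted p = 0.00432). DYNLL2 had 0.19 and 0.22 (adjusted p = 0.407 and 0.477 in limma). DYNLRB2, a roadblock chain best known from ciliated cells, averaged under 8 and was higher by 0.16 on the log2 scale in MDA-MB-231 (adjusted p = 0.0254 in limma), a call lost under 7 of the alternatives, and 0.04 in SKOV3.

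Among the 14 mitotic kinesins, 5 fell and 1 rose in MDA-MB-231 cells, and 1 fell and 1 rose in SKOV3 cells. All of these were among the 10 with a mean above 8, where the shares over all rows were 26.2% lower and 39% higher in MDA-MB-231 and 15.3% and 23.4% in SKOV3. For the 10 with a mean above 8 the median log2 fold change was -0.56 in MDA-MB-231, with 9 of 10 below 0, and -0.06 in SKOV3, with 6 of 10 below 0, against medians of 0.17 and 0.15 over all rows above 8. No difference between the lines passed for any of them. In both lines miR-365a-3p replicate 1 was the lowest of the 3 miR-365a-3p arrays for 9 of these 10 genes, whereas it was the lowest for 44.8% of all rows above 8 in MDA-MB-231 and 37.7% in SKOV3. Without it in MDA-MB-231, 5 mitotic kinesins were lower and 1 higher in that line, and without it in SKOV3, 1 was lower and 2 higher in SKOV3, while 7 were lower in MDA-MB-231.

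KIF20A, which carries the chromosomal passenger complex to the midzone of the dividing cell, was the mitotic kinesin that fell in both lines. It was at 10.38, 10.01 and 10.18 in MDA-MB-231 controls and 8.55, 9.12 and 9.10 with miR-365a-3p, and at 9.89 and 9.85 in SKOV3 controls and 8.61, 9.04 and 8.97 with miR-365a-3p. The groups were apart in both lines. The log2 fold changes were -1.26 (SE 0.174, adjusted p = 0.00088 in limma), 2.40-fold lower, and -1.0 (SE 0.195, adjusted p = 0.00959 in limma), 2.00-fold lower, and the SKOV3 call was lost without either control array (adjusted p = 0.0736 and 0.0719).

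KIF11, also known as Eg5, slides antiparallel microtubules apart and so separates the spindle poles. Its MDA-MB-231 controls were at 9.81, 9.29 and 9.35 and its miR-365a-3p arrays at 7.97, 8.18 and 8.25, whereas the SKOV3 controls at 8.57 and 8.50 fell within the miR-365a-3p arrays at 7.86, 8.63 and 8.41. The groups were apart in MDA-MB-231 only. The log2 fold change was -1.35 (SE 0.201, adjusted p = 0.00132 in limma), 2.55-fold lower, in MDA-MB-231 and -0.23 (adjusted p = 0.675 in limma) in SKOV3, and the difference of -1.12 did not pass (adjusted p = 0.12 in limma). It passed under 3 alternatives, the trended robust fit (adjusted p = 0.0345 in limma), array weights (0.0144) and without SKOV3 miR-365a-3p replicate 1 (-1.32, adjusted p = 0.0196).

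KIF14 works with citron kinase in cytokinesis. It was at 9.26, 9.04 and 9.07 in MDA-MB-231 controls and 7.73, 8.02 and 8.12 with miR-365a-3p, while SKOV3 controls at 8.27 and 8.28 lay within the miR-365a-3p arrays at 7.78, 8.31 and 8.26. The log2 fold change was -1.17 (SE 0.148, adjusted p = 0.000582 in limma) in MDA-MB-231 and -0.16 (adjusted p = 0.702 in limma) in SKOV3. Their difference of -1.0 narrowly missed the threshold (adjusted p = 0.0578 in limma) and passed under 5 of the alternatives, with an adjusted p of 0.00848 without SKOV3 miR-365a-3p replicate 1.

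KIF23, the motor of the centralspindlin complex, and KIF2A, a depolymerase of microtubule ends, also fell in MDA-MB-231 and did not pass in SKOV3, with no called difference between the lines. KIF23 was at 9.25, 8.69 and 9.12 in controls and 8.15, 8.33 and 8.38 with miR-365a-3p, a log2 fold change of -0.73 (SE 0.162, adjusted p = 0.00964 in limma), and had -0.22 in SKOV3 (adjusted p = 0.583 in limma). KIF2A was at 9.42, 9.15 and 9.26 in controls and 8.85, 8.89 and 8.90 with miR-365a-3p, a log2 fold change of -0.40 (SE 0.0789, adjusted p = 0.0057 in limma), and had -0.03 in SKOV3 (adjusted p = 0.918 in limma).

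KIF18A, which dampens chromosome movements at the metaphase plate, rose in both lines. It was at 8.32, 8.0 and 8.05 in MDA-MB-231 controls and 9.02, 8.85 and 8.90 with miR-365a-3p, and at 7.88 and 7.88 in SKOV3 controls and 8.51, 8.33 and 8.31 with miR-365a-3p. All miR-365a-3p arrays were above all control arrays of their line. The log2 fold changes were 0.80 (SE 0.0894, adjusted p = 0.000306 in limma), 1.74-fold, and 0.51 (SE 0.1, adjusted p = 0.0104 in limma), 1.42-fold, with the SKOV3 call lost without either control array (adjusted p = 0.0744 and 0.0807).

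The remaining mitotic kinesins above 8 did not pass in either line at the main settings, but some did in MDA-MB-231 at others. KIF20B, a cytokinesis motor, had log2 fold changes of -0.89 and 0.10 (adjusted p = 0.0605 and 0.934 in limma), and its MDA-MB-231 value passed under 7 alternatives, with an adjusted p as low as 0.0139. KIF15, which backs up KIF11 at the spindle, had -0.30 and 0.09 (adjusted p = 0.0654 and 0.782 in limma), and its MDA-MB-231 value also passed under 7 alternatives, at -0.66 on the deposited values (adjusted p = 0.0069). KIF22, another motor of chromosome arms, had -0.05 and -0.08, with -0.28 in MDA-MB-231 on the deposited values and -0.25 with median centring (adjusted p = 0.012 and 0.0177 in limma). KIF2C, the centromeric depolymerase, had -0.12 and 0.19 (adjusted p = 0.757 and 0.717 in limma). KIF4A, a chromosome-arm motor with a mean of 7.96, had 0.02 and 0.42 (adjusted p = 0.944 and 0.0562 in limma). KIF4A and KIF4B are near-identical copies, so probes may not tell them apart.

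**Figure D3:**
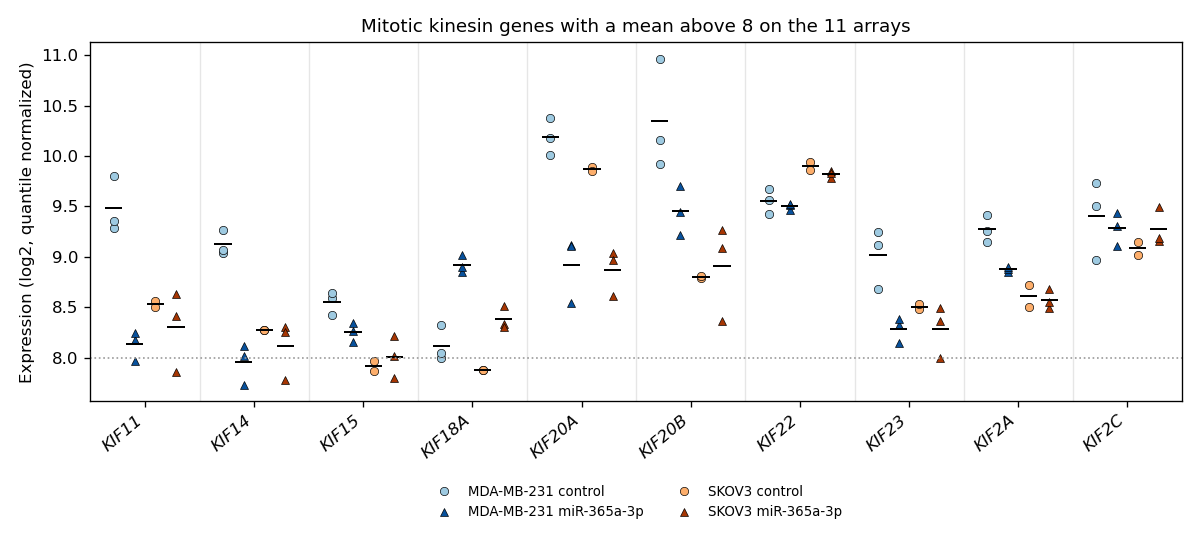
Normalized log2 level on the y axis of the mitotic kinesins with a mean above 8, side by side on the x axis. Circles are control arrays, triangles miR-365a-3p arrays, blue MDA-MB-231 and orange to brown SKOV3, short bars are group means and the dotted line is at 8. KIF20A is lower and KIF18A higher on the miR-365a-3p arrays of both lines, whereas KIF11, KIF14 and KIF23 are apart in MDA-MB-231 and overlap in SKOV3.

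The start regions of the mitotic kinesins shared letters that the choice of genes did not use. Promoters of 300 bases, from 250 before to 50 after the start, were read from RefSeq (GRCh38.p14) for 45 of the 52 genes, 58 promoters in all. The motifs searched, on both strands, were the cell cycle homology region, TTTGAA, and the CCAAT box, CCAAT, neither of which contains the other. TTTGAA was in 9 of 15 mitotic kinesin promoters, 60%, against 15.2% of all 35116 promoters, and CCAAT in 10, 66.7%, against 34.6%. Both were in 8 of the 15, 53.3%, against 5.9%. Among these 8 were KIF4A and KIF4B, near-identical copies whose windows share a near-identical stretch with both motifs, so they are not independent. KIF4A, KIF4B and KIF18B had a mean of 8 or less, and these and KIF20B had no response call at the main settings. TTTGAA was in 6.25% of the 16 transport kinesin promoters and in 12.5% of the 8 light chain promoters, and in none of the 11 of other kinesins, the 2 of heavy chains and the 6 of intermediate and light intermediate chains.

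The promoters of 3 mitotic kinesins that fell in MDA-MB-231 and of KIF18A, which rose, are shown since all 4 hold both motifs. The capitals mark the motif matches on either strand, and each is written 5′ to 3′ along the gene's strand. KIF11 is at chr10:92592880-92593179 on the plus strand, KIF14 at chr1:200620702-200621001 on the minus strand, KIF18A at chr11:28108107-28108406 on the minus strand and KIF23 at chr15:69414099-69414398 on the plus strand. Of the others that fell, KIF20A had 2 CCAAT matches and no TTTGAA in its window, and KIF2A had neither.
KIF11: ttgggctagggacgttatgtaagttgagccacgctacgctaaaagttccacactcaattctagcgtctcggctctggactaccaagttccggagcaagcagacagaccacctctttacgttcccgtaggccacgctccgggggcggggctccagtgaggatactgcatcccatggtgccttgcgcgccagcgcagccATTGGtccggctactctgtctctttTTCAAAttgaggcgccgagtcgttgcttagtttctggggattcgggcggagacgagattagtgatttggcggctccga
KIF14: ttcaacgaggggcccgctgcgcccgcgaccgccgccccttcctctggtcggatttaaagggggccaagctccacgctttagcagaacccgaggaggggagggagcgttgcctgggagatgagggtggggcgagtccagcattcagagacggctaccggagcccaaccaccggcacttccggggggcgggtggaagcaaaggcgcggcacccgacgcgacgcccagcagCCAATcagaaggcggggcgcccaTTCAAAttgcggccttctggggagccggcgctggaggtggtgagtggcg
KIF18A: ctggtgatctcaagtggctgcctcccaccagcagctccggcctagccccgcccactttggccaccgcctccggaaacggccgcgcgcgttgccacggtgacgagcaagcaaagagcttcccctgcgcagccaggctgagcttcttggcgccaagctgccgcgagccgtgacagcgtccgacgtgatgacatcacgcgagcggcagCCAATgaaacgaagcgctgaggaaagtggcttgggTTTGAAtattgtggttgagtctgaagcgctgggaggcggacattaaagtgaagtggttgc
KIF23: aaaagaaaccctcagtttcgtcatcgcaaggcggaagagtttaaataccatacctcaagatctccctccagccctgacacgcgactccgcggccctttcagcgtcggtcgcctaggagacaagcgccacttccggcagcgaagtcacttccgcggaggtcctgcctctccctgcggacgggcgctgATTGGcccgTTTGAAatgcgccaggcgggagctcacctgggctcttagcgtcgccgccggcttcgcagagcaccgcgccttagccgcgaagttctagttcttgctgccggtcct
The matches are descriptions of letters and not sites of binding.

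**Figure D4:**
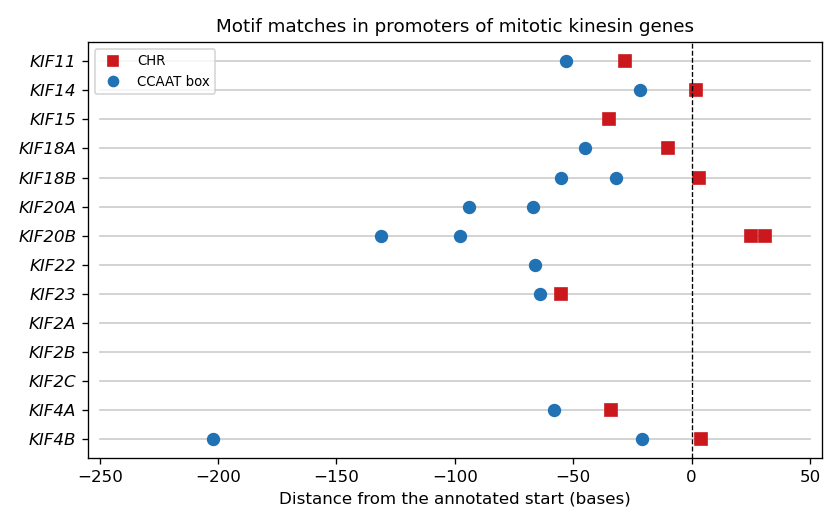
Position of each TTTGAA match (CHR, red squares) and CCAAT match (blue circles), on either strand, in bases from the annotated start on the x axis, for the first listed promoter of each mitotic kinesin on the y axis. Positions are those of a match's first base along the gene's strand, whichever strand the motif is on. In KIF11, KIF14, KIF18A and KIF23 the TTTGAA match begins at -28, 2, -10 and -55. The CCAAT match begins at -53, -22, -45 and -64.

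Of the 13 transport kinesins, 4 fell and 1 rose in MDA-MB-231 cells and 3 fell and 1 rose in SKOV3 cells. Over all rows the shares were 11.7% lower and 14.4% higher in MDA-MB-231 and 7.11% and 7.25% in SKOV3. Only KIF3B and KIF5B had a mean above 8, with 1 lower in MDA-MB-231 and 0 called in SKOV3. Of all rows above 8, 26.2% were lower and 39% higher in MDA-MB-231 and 15.3% and 23.4% in SKOV3. KIF3B, a subunit of the heterotrimeric kinesin-2 that serves cilia and vesicles, was at 8.85, 8.73 and 8.87 in MDA-MB-231 controls and 7.46, 7.78 and 7.83 with miR-365a-3p. Its log2 fold change there was -1.12 (SE 0.167, adjusted p = 0.00129 in limma), 2.18-fold lower. In SKOV3 cells controls at 8.58 and 8.57 were above the miR-365a-3p arrays at 7.71, 8.31 and 8.37, with a log2 fold change of -0.45 that did not pass (adjusted p = 0.177 in limma) but was -0.73 on the deposited values and -0.69 with median centring (adjusted p = 0.038 and 0.0477). The difference of -0.68 (adjusted p = 0.278 in limma) was -0.89 (adjusted p = 0.0186) without SKOV3 miR-365a-3p replicate 1 and -0.78 (0.0322) with array weights.

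KIF3A, the partner of KIF3B in kinesin-2, rose by small amounts that depended on the scaling. Its log2 fold changes were 0.17 and 0.21 (adjusted p = 0.0138 and 0.0152 in limma), with an adjusted p of 0.688 and 0.916 on the deposited values, and the SKOV3 call was also lost without either control array. KIF5B, the widely used kinesin-1 heavy chain, was at 9.98, 9.45 and 9.21 in MDA-MB-231 controls and 8.66, 8.93 and 9.32 with miR-365a-3p, which overlapped, and its log2 fold changes were -0.58 and 0.06 (adjusted p = 0.12 and 0.951 in limma), with -0.86 in MDA-MB-231 on the deposited values (adjusted p = 0.0478).

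KIF1B, which moves mitochondria and synaptic vesicle precursors, fell in both lines from a low level. It was at 8.01, 8.13 and 8.04 in MDA-MB-231 controls and 7.40, 7.44 and 7.40 with miR-365a-3p, and at 8.14 and 8.16 in SKOV3 controls and 7.42, 7.75 and 7.67 with miR-365a-3p, with no overlap in either line. The log2 fold changes were -0.65 (SE 0.0739, adjusted p = 0.000341 in limma) and -0.53 (SE 0.0826, adjusted p = 0.00319 in limma), the SKOV3 call being lost with that line fitted alone (adjusted p = 0.0558). KIF13B, a vesicle motor, had -0.33 and -0.52 (adjusted p = 0.00915 and 0.00317 in limma), and -0.20 in MDA-MB-231 with cyclic loess, where the call was lost (adjusted p = 0.0664). KIF1C, a vesicle motor of the same family as KIF1B, had -0.32 in MDA-MB-231 (adjusted p = 0.000869 in limma) and -0.14 in SKOV3 (adjusted p = 0.105 in limma), the latter -0.31 and called on the deposited values (adjusted p = 0.00351). KIF3C, another kinesin-2 subunit, had -0.08 and -0.22 (adjusted p = 0.369 and 0.046 in limma), the last lost under 10 of the alternatives.

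**Figure D5:**
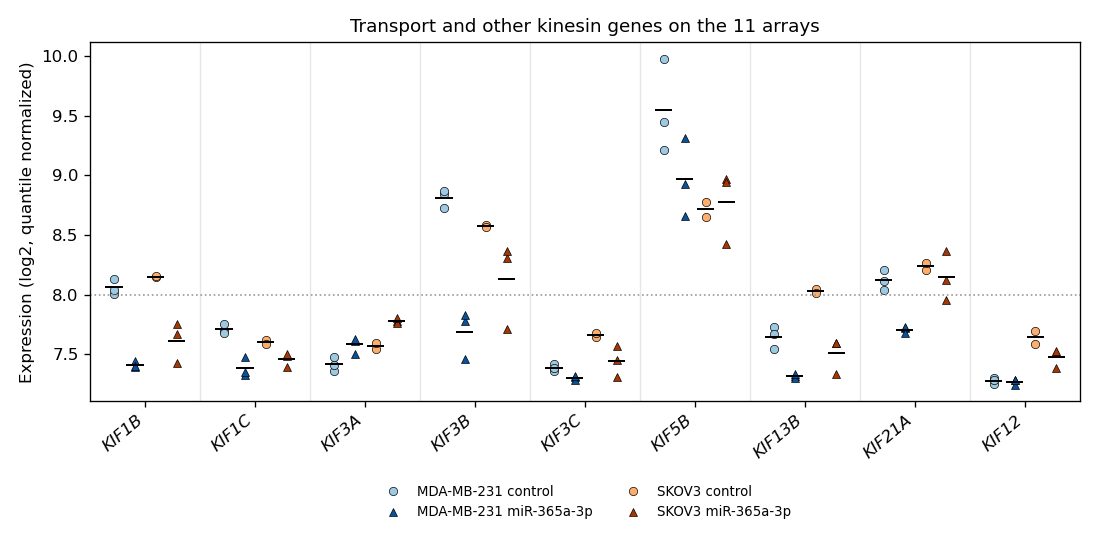
Normalized log2 level on the y axis of the transport and other kinesins that were called in a line or had a mean above 8, side by side on the x axis. Circles are control arrays, triangles miR-365a-3p arrays, blue MDA-MB-231 and orange to brown SKOV3, short bars are group means and the dotted line is at 8. KIF3B and KIF1B are lower on the miR-365a-3p arrays of both lines, and KIF1C, KIF3A, KIF3C and KIF12 lie below 8 on all arrays.

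Of the 12 other kinesins, KIF21A, which acts on microtubule growth at the cell cortex, fell in MDA-MB-231. It was at 8.21, 8.12 and 8.04 in controls and 7.72, 7.73 and 7.68 with miR-365a-3p, a log2 fold change of -0.41 (SE 0.0896, adjusted p = 0.00843 in limma), against -0.09 in SKOV3 (adjusted p = 0.729 in limma). KIF12 had -0.17 in SKOV3 (adjusted p = 0.0466 in limma), a call lost under 11 of the alternatives. The 21 motor genes with a mean of 8 or less that were called in no comparison had group means from 7.28 to 8.29 and log2 fold changes from -0.13 to 0.09 in MDA-MB-231 and -0.13 to 0.47 in SKOV3. The highest of the last was KIF6 (adjusted p = 0.0508 in limma).

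Without the miRNA the lines themselves differed. Of the 52 motor genes, 7 were higher in MDA-MB-231 controls than in SKOV3 controls, beside 7.76% of all rows, and 8 were lower, beside 8.34%. Of the 23 with a mean above 8, 7 were higher and 3 lower, beside 1374 and 1316 of the 6853 rows above 8. Higher were DYNC1H1 by 1.76 on the log2 scale (SE 0.134, adjusted p = 3.94e-05 in limma) and DYNC1LI1 by 0.54 (SE 0.0585, adjusted p = 0.000283 in limma), and the mitotic kinesins KIF20B by 1.55, KIF11 by 0.95, KIF14 by 0.85, KIF2A by 0.66 and KIF15 by 0.63 (adjusted p = 0.0131, 0.02, 0.0074, 0.00093 and 0.00523 in limma). KIF20B was at 10.96, 9.92 and 10.16 on the MDA-MB-231 control arrays and at 8.80 and 8.81 on those of SKOV3, with no overlap. Lower were DYNLT1 by -1.26, DYNLL1 by -0.77, DYNC2H1 by -0.48, KIF13B by -0.38, KIF12 by -0.37, KIF22 by -0.34, KIF3C by -0.27 and KIF3A by -0.16. DYNLL1 was at 11.43, 11.98 and 11.40 on the MDA-MB-231 control arrays and at 12.46 and 12.29 on those of SKOV3, again with no overlap. The KIF11 call was lost on the deposited values and with median centring (adjusted p = 0.0643 and 0.0604 in limma), with the replicate block and without MDA-MB-231 control replicate 1 (0.0605 and 0.053). KIF3A and KIF22 lost the call with the trended robust fit (adjusted p = 0.0757 and 0.132 in limma), and KIF3A also without each SKOV3 miR-365a-3p array. DYNC1H1, KIF11, KIF14 and KIF2A, which fell in MDA-MB-231, were among those with the higher control level there. This comparison shares its control arrays with the responses, and its calls over the motor genes went from 15 to 8 and 6 without SKOV3 control replicate 1 and 2. KIF11, KIF14, KIF20B, DYNLL1, KIF13B, KIF3A and KIF3C lost the call without either of these arrays, and KIF15 and KIF22 without the second.

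Partners of the motors were described from lists chosen with earlier results of these data known. Of 18 kinesin partners, 5 fell and 1 rose in MDA-MB-231 and 3 fell and 1 rose in SKOV3, beside 11.7% and 14.4% of all rows in MDA-MB-231 and 7.11% and 7.25% in SKOV3. Of the 9 with a mean above 8, 3 were lower and 1 higher in MDA-MB-231 and 1 and 1 in SKOV3, beside 26.2% and 39%, and 15.3% and 23.4%, of all rows above 8. KLC1, a cargo-binding light chain of kinesin-1, had log2 fold changes of -0.59 and -0.64 (adjusted p = 0.000952 and 0.00224 in limma), and TRAK1, a mitochondrial adaptor, of -0.58 and -0.32 (adjusted p = 0.000204 and 0.014 in limma), the SKOV3 call of TRAK1 being lost without either control array.

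Dynactin and the regulators of dynein were split, with 6 lower and 6 higher of 23 in MDA-MB-231 and 8 lower and 4 higher in SKOV3. Of the 15 with a mean above 8, 4 were lower and 6 higher in MDA-MB-231 and 4 and 4 in SKOV3, beside the same shares of all rows. DCTN4 and ACTR1A, a pointed-end subunit and the filament-forming actin-related protein of dynactin, had -1.23 and -1.27 in MDA-MB-231 (adjusted p = 3.27e-05 and 6.46e-05 in limma) and -0.99 and -0.60 in SKOV3 (adjusted p = 0.000358 and 0.00945 in limma). ACTR10 and DCTN6, both of the pointed end, had 0.84 and 1.01 in MDA-MB-231 (adjusted p = 0.0019 and 0.00183 in limma) and 0.98 and 0.79 in SKOV3 (adjusted p = 0.00316 and 0.0194 in limma). Subunits of the same dynactin structure were called in opposite directions in both lines, although the SKOV3 calls of ACTR1A and DCTN6 were lost without either SKOV3 control array.

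Of 29 spindle and cell division genes, 14 were lower and 3 higher in MDA-MB-231 and 7 and 3 in SKOV3, beside 11.7% and 14.4% of all rows in MDA-MB-231 and 7.11% and 7.25% in SKOV3, and the median log2 fold changes were -0.34 and -0.19, against 0.01 and 0.01 over all rows. Of the 23 with a mean above 8, 8 were lower and 3 higher in MDA-MB-231 and 2 and 3 in SKOV3, with medians of -0.34 and -0.06 against 0.17 and 0.15 over all rows above 8. TPX2, which brings Aurora A to the spindle, had -1.80 and -0.94 (adjusted p = 2.93e-05 and 0.00264 in limma), and PLK1, a mitotic kinase, -0.65 and -0.91 (adjusted p = 0.000248 and 0.00017 in limma). TTK, a checkpoint kinase, had 1.28 and 1.07 (adjusted p = 0.00367 and 0.0266 in limma), and its SKOV3 call was lost when any of 4 SKOV3 arrays was left out. RACGAP1, the partner of KIF23 in centralspindlin, had 0.61 and 0.72 (adjusted p = 0.000256 and 0.000436 in limma), the first lost on the deposited values, while KIF23 fell in MDA-MB-231. Of 12 axonemal dynein heavy chains, the motors that beat cilia and flagella, 1 was called, DNAH14, at 0.33 in MDA-MB-231 (adjusted p = 0.0065 in limma), beside 14.4% of all rows higher there.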

How the data were processed

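The authors hybridized biotin-labelled cRNA to Illumina expression BeadChips, quantile normalized the data with the lumi package and deposited a table of log2 values with 31325 gene symbols as rows and 11 arrays as columns. Whether the transformation was log2 or variance-stabilizing, the background correction, the probe filter and the rule for several probes of a gene are not given in the sources used here, so fold changes carry that limit. No detection call was used, and precision is limited by how few arrays there are.

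The deposited columns did not share 1 distribution, so they were quantile normalized again in limma 3.58.1 (R 4.3.3). A fit of 4 group means (lmFit, eBayes) gave the contrasts, adjusted by Benjamini-Hochberg over all 31325 rows with a threshold of 0.05. The fit was also run on simulated data with independent noise and the same shift in both lines. That run held no array-wide scaling or line-specific change, so it cannot show how the fit handles these. All 52 symbols are current in RefSeq (GRCh38.p14). Named with values were all dynein genes, kinesins with a mean above 8, other kinesins that were called, and at most 2 falls and 2 rises per partner list among genes called in both lines. KIF4A, KIF6 and DNAH14 fall outside this rule and were named after their values were seen. Members and lists were chosen with earlier results of these data known. Alternatives were deposited values, median centring, cyclic loess, a filter on low rows, each line alone, a replicate block, a trended robust fit, array weights and leaving out each array. A planned relation to protein length was not run, since no protein table was used here. Figures were drawn with matplotlib 3.10.9 in Python 3.11.15.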

Additional observations from a re-analysis of the deposited data

Results flagged for a closer look

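The fall of DYNC1H1 was tested for a difference between the cell lines and differed, by -1.29 on the log2 scale (SE 0.18, adjusted p = 0.00745 in limma), being larger in MDA-MB-231 than in SKOV3 cells. The control level was higher in MDA-MB-231 by 1.76, and the miR-365a-3p arrays averaged 8.18 there and 7.71 in SKOV3, where the 75th percentile of an array is 7.80. How far the low end of the table sets the difference was not tested.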

How the results depend on the processing

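Of 71 values of named genes that passed, 40 kept their direction and call under every alternative run and 31 did not under at least 1. DYNC1LI1 in MDA-MB-231 turned from 0.14 to -0.24 on the deposited values and -0.21 with median centring (adjusted p = 0.0294 and 0.0464 in limma). Against 13 motor genes lower in MDA-MB-231, the deposited values gave 21 and median centring 20. With each line alone, 3 were higher in MDA-MB-231 and, in SKOV3, 7 were called, 5 lower and 2 higher. Cyclic loess and array weights each gave 7 higher in SKOV3. The response differed between lines for 3 genes on the deposited values, with median centring, with cyclic loess and with the trended robust fit, for 2 among rows above the median and for 5 with array weights. Leaving out 1 array at a time gave 17 to 21 genes called in MDA-MB-231 (13 to 15 lower, 4 to 7 higher), 3 to 13 in SKOV3 (3 to 8 lower, 0 to 6 higher), 0 to 5 for the difference and 6 to 17 between controls. In SKOV3 0 were higher without control replicate 1 or 2, with 6 at an unadjusted p under 0.05 in limma each time. Deviations of same-numbered arrays from their group means had r of -0.12, 0.04 and 0.23 in MDA-MB-231 and 0.04 and -0.07 in SKOV3. Differently numbered MDA-MB-231 arrays had r from -0.47 to 0.35. Deviations from means of so few arrays are tied to each other, and those of the 2 SKOV3 controls are mirror images. These values therefore cannot decide whether the numbers pair the arrays. The replicate block gave 20 and 14 called in MDA-MB-231 and SKOV3, 1 for the difference and 15 between controls. With 2 SKOV3 control arrays, leaving 1 out assumes that the other varies like the remaining groups. The cause of these shifts was not tested.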
